A study of Homo sapiens with 2 samples.

Results

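ASCL2, SOX9 and BMI1 are regulators of the stem cells at the base of the intestinal crypt, and ChIP-seq peaks of 2 FLAG-tagged factors, wt-Cdx1 and wt-Cdx2, were examined around these 3 genes. The members are the 74 peaks (34 FLAG-wt-Cdx1 and 40 FLAG-wt-Cdx2), of 415628 in both lists, whose summits lie in windows of the gene plus about 50 kb on each side. The windows are positions 2239000 to 2343000 of chromosome 11 for ASCL2 (minus strand), 70067000 to 70173000 of chromosome 17 for SOX9 (plus strand), and 22560000 to 22671000 of chromosome 10 for BMI1 (plus strand), in GRCh37, the build named in the submitters' processing notes. They were set by position, and no measured value was used to choose the peaks within them. The genes and windows themselves were chosen with earlier results of these data known.

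The libraries, 1 per factor, came from DLD1-TetOff cells, a human colon cancer line in which doxycycline (DOX) keeps a transfected gene off. FLAG-tagged mouse wt-Cdx1 or wt-Cdx2, each in its own TetOff cell clone, was turned on by withdrawing DOX (0.5 µg/mL) from the medium. The cells of 10 dishes per factor were pooled and fixed 20 h later, and the chromatin was cut with micrococcal nuclease (MNase) and precipitated with anti-FLAG beads. The sample descriptions say that the tagged gene is not expressed in the presence of DOX. The protocols for growth and treatment describe withdrawal of DOX, so both libraries were taken as induced. The FLAG-wt-Cdx1 library kept 16452141 tags and the FLAG-wt-Cdx2 library 13781541 after removal of duplicates. The anti-FLAG beads recover the tagged protein and not endogenous CDX1 or CDX2, and neither input DNA nor cells lacking the factors were analyzed here. Because there were no replicates, no difference between the factors was tested, and all intervals are 95% intervals that cover counting error only.

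CDX1 and CDX2 are homeodomain transcription factors that give the intestinal epithelium its identity and bind AT-rich DNA, with TTTAT as the core of their sites. In the crypt, Wnt signaling through β-catenin maintains the stem cells. ASCL2, a basic helix-loop-helix factor, and SOX9, a high-mobility-group box factor, are both Wnt targets active at the crypt base, where ASCL2 controls stem cell fate and SOX9 is also needed for Paneth cells. BMI1 is a subunit of the Polycomb repressive complex PRC1 and has been used as a marker of slowly cycling crypt cells. The RT-qPCR primers of the study cover the mRNAs of all 3 genes. The question addressed here is where the tagged factors were located around these genes, and whether they were located at the same sites.

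No sequence of the peaks themselves is printed, because a GRCh37 genome was not used here. Of the 3 genes, 1 (BMI1) was matched to the RefSeq promoter sequences of GRCh38.p14. Just upstream of BMI1 lies the start shared by COMMD3, a copper metabolism domain gene, and the readthrough gene COMMD3-BMI1. Both sequences below are 250 bases long and end at the base before the start. They are shown because they belong to the first RefSeq start of BMI1 and to the gene next to it on the upstream side, where both shared sites of BMI1 were found. They are in lower case throughout, since neither holds the CDX core TTTAT or its reverse complement ATAAA, which capitals would mark.
BMI1, chr10:22320849-22321098, plus strand: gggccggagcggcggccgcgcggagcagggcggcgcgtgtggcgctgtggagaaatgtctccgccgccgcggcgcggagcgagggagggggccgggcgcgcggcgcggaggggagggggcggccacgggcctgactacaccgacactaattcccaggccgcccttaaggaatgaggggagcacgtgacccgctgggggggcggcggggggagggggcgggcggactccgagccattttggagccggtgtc
COMMD3-BMI1, chr10:22316138-22316387, plus strand: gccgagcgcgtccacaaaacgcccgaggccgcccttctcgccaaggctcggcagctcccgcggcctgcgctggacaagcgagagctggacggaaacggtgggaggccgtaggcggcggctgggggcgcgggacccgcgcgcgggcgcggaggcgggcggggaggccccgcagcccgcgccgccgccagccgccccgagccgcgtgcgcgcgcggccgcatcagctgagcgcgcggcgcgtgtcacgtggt
Neither sequence held TTTAT on either strand (0 matches each), whereas 32.7% of 35116 RefSeq promoter windows of this length held it at least once. The GC content was 76.8% for BMI1 and 80% for COMMD3-BMI1, against a median of 58% over all windows. A second RefSeq start of BMI1, whose sequence is not printed, had a GC content of 91.6% and 0 matches. The absence of these letters says nothing of sites outside these windows, and the distance between the peaks, which are in GRCh37, and these sequences was not determined. Within GRCh38.p14, the start of COMMD3-BMI1 lies 4711 bases upstream of the first start of BMI1.

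Peaks were found at all 3 genes in both libraries, most of them at SOX9 and ASCL2. At ASCL2, 12 peaks of FLAG-wt-Cdx1 were called beside 14 of FLAG-wt-Cdx2. At SOX9, 13 and 14 were called, and at BMI1, 9 and 12. To read these counts against the rest of each chromosome, every chromosome was cut into neighboring windows of the same length as the locus. The median window of chromosome 17 held 6 summits in the FLAG-wt-Cdx1 library and 8 in the other, and the counts at SOX9 were above those of 95.8% and 93.5% of its 736 windows, respectively. For ASCL2, the median of 1259 windows of chromosome 11 was 8 in both libraries, and 87.1% and 92.1% of them held fewer summits. BMI1 lay closer to the middle, with medians of 7 and 9 over 1168 windows of chromosome 10, of which 61.9% and 78.8% held fewer. SOX9 and ASCL2 therefore lay in the upper part of the range for their chromosomes, although windows with more summits were present in each case.

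**Figure D1:**
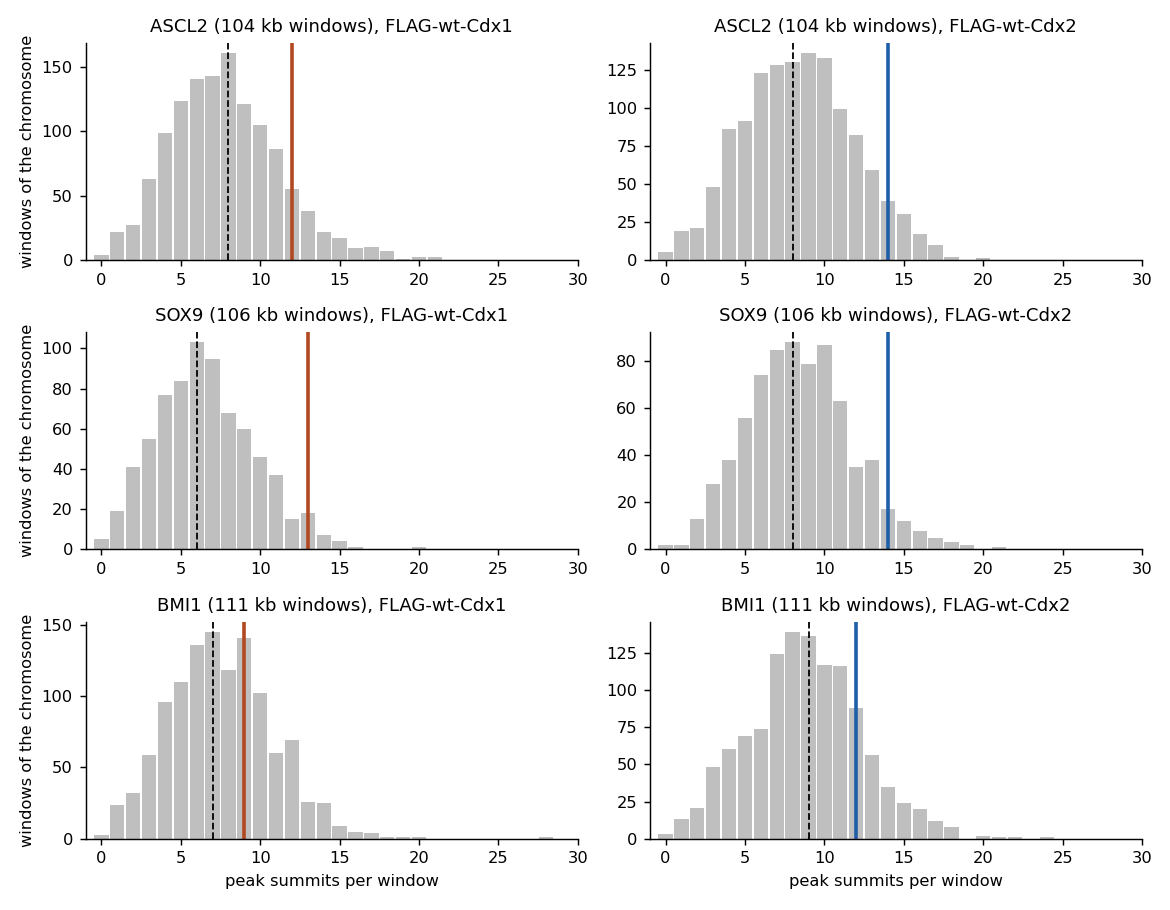
Number of peak summits per window (x axis) against the number of windows (y axis) for windows of the length of each locus along its chromosome, by library. The colored line marks the locus and the dashed line the median window: at SOX9 the locus held 13 and 14 summits against medians of 6 and 8, whereas BMI1 held 9 and 12 against 7 and 9.

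The strength of a peak is its pileup, the number of fragments covering the summit, which is not scaled to depth. A pileup percentile is the share of peaks in the same list with a lower pileup. Over both whole lists, the FLAG-wt-Cdx1 peaks had a median pileup of 9 fragments, compared with 8 in FLAG-wt-Cdx2. Peaks of equal pileup do not count as lower, so a peak at these medians stood at percentile 31.9 and 44.8, respectively. At SOX9, the median was 12 and 9 fragments, with ranges of 7 to 19 and 5 to 17. At ASCL2, it was 9 and 8 fragments, with ranges of 7 to 19 and 6 to 17. At BMI1, it was 9 and 6.5 fragments, and no peak of either library exceeded 11. The median percentile was 73.2 and 60.2 at SOX9, 31.9 and 44.8 at ASCL2, and 31.9 and 16.8 at BMI1. A pileup above the list median was seen in 9 of 13 FLAG-wt-Cdx1 peaks at SOX9, 5 of 12 at ASCL2 and 3 of 9 at BMI1, against 49.9% of that list. In FLAG-wt-Cdx2 it was 8 of 14, 5 of 14 and 4 of 12, against 39.8%. At SOX9 the median pileup was thus above that of the lists, and at ASCL2 it equaled that of the lists, with strongest peaks of 19 and 17 fragments. At BMI1 the median FLAG-wt-Cdx1 pileup equaled that of its list. The median FLAG-wt-Cdx2 pileup at BMI1 was below that of its list, although the highest FLAG-wt-Cdx2 peak there stood at percentile 80.5. By fold enrichment, the pileup relative to local background, the order of the genes was partly different. The FLAG-wt-Cdx1 median was 5.63 at SOX9, 5.40 at BMI1 and 4.46 at ASCL2, against 5.33 in its list. In FLAG-wt-Cdx2 it was 4.95 at SOX9 and 4.43 at BMI1, with ASCL2 between them, against 4.72. The highest FLAG-wt-Cdx2 value was 7.46 at ASCL2, 7.08 at BMI1 and 6.38 at SOX9. For FLAG-wt-Cdx1 these were 8.19, 6.67 and 7.82.

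**Figure D2:**
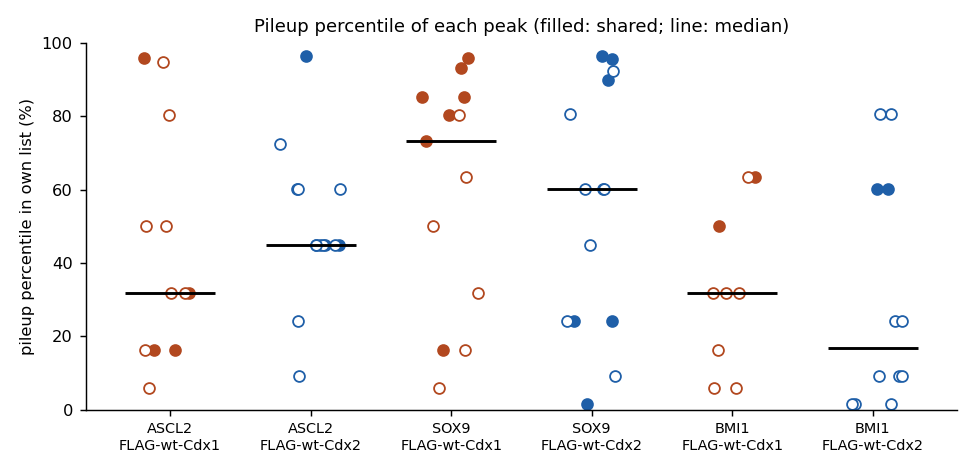
Pileup percentile of each peak within its own list (y axis, percent) for each locus and library (x axis). Filled points have a summit of the other library within 100 bp, open points do not, and lines are medians: the SOX9 medians are 73.2 and 60.2, and the highest point at BMI1 is 63.4 in FLAG-wt-Cdx1 and 80.5 in FLAG-wt-Cdx2.

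With a stricter threshold, a −log10 q of at least 5, 8 of 13 FLAG-wt-Cdx1 peaks were kept at SOX9, 4 of 12 at ASCL2 and 4 of 9 at BMI1, against 52.2% of the whole FLAG-wt-Cdx1 list. For FLAG-wt-Cdx2, 6 of 14 were kept at SOX9, 4 of 14 at ASCL2 and 4 of 12 at BMI1, against 29.0% of its list. A fold enrichment of at least 5 was reached by 10 FLAG-wt-Cdx1 peaks at SOX9, 4 at ASCL2 and 6 at BMI1, against 63.2% of the list, and by 7, 5 and 4 in FLAG-wt-Cdx2, against 42.6%. Over the 3 loci, 16 of 34 (47.1%) and 14 of 40 (35.0%) passed the q threshold. These pooled shares were near those of the lists. By gene, the SOX9 shares were above those of both lists, and the FLAG-wt-Cdx1 share of ASCL2 was below that of its list.

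Sites shared by the libraries were defined as summits within 100 bp of each other, and 13 such pairs were found. SOX9 held 7, or 53.8% of its FLAG-wt-Cdx1 peaks (29.1 to 76.8, 95% Wilson interval) and 50% of those of FLAG-wt-Cdx2 (26.8 to 73.2). The share in the whole list was 29.2% for FLAG-wt-Cdx1, compared with 26.3% for FLAG-wt-Cdx2. The value of the list thus lay just inside the lower bound at SOX9 for FLAG-wt-Cdx1 and just below it for FLAG-wt-Cdx2. ASCL2 held 4 pairs, 33.3% (13.8 to 60.9) and 28.6% (11.7 to 54.6) of its peaks. BMI1 held 2 pairs, 22.2% (6.32 to 54.7) and 16.7% (4.70 to 44.8). The list values lay inside the intervals of ASCL2 and BMI1. Over all 3 loci the share was 38.2% (23.9 to 55.0) in FLAG-wt-Cdx1 and 32.5% (20.1 to 48.0) in the other list, and these intervals also held the list values. The Wilson intervals treat the peaks of a locus as independent draws, and each pair enters the shares of both libraries. Neighboring peaks of 1 library are not replicates, so whether any share differed from that of the lists was not tested. Sharing rose with strength in both lists: of the peaks whose −log10 q reached 5, 38.2% were shared in FLAG-wt-Cdx1 but 19.4% of the weaker ones, compared with 46.2% and 18.2% in FLAG-wt-Cdx2. At SOX9, 6 of 8 stronger and 1 of 5 weaker FLAG-wt-Cdx1 peaks were shared, as were 3 of 6 stronger and 4 of 8 weaker FLAG-wt-Cdx2 peaks. For ASCL2, these were 1 of 4 and 3 of 8 in FLAG-wt-Cdx1, and 1 of 4 and 3 of 10 in FLAG-wt-Cdx2. For BMI1, they were 2 of 4 and 0 of 5 in FLAG-wt-Cdx1, and 2 of 4 and 0 of 8 in FLAG-wt-Cdx2.

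**Figure D3:**
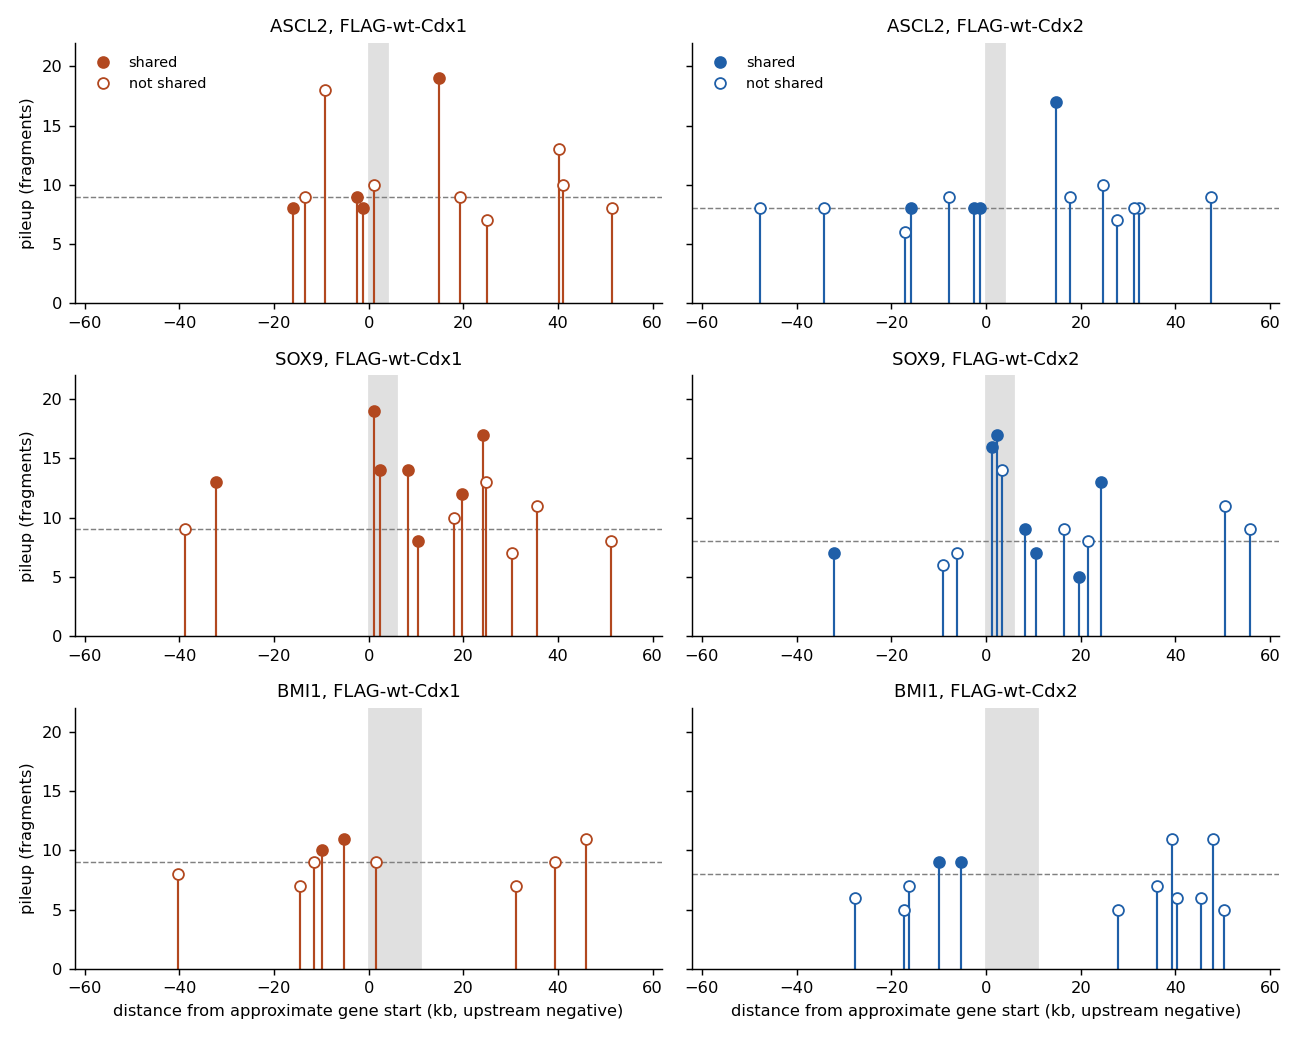
Pileup of each peak in fragments (y axis) against the distance of its summit from the approximate gene start in kb along the gene's strand (x axis, upstream negative), for each locus and library. Filled points are shared, the gray band is the approximate gene body and the dashed line the median pileup of the list: the strongest SOX9 peaks of FLAG-wt-Cdx2 stand in the gene body, whereas the gene body of BMI1 holds 1 FLAG-wt-Cdx1 peak of 9 fragments and 0 FLAG-wt-Cdx2 peaks.

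Distances below are counted along the gene's strand from a gene start placed 50 kb inside the edge of the window, since the windows were drawn as the gene plus about 50 kb. Annotation of GRCh37 was not used here, so that these distances are accurate to about 1 kb, and exons, introns and UTRs were not assigned to the summits.

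At SOX9, both factors had strong peaks in the gene itself. The nearest FLAG-wt-Cdx1 summit was at position 70118199, 1199 bp downstream of the gene start. Its pileup was 19 fragments (95% exact Poisson interval, 11.4 to 29.7), higher than that of 95.7% of the list, with a fold enrichment over local background of 7.82 and a −log10 q of 11.6. The nearest FLAG-wt-Cdx2 summit, at 70118181, was 18 bp away and had 16 fragments (9.15 to 26.0; percentile 95.5), a fold enrichment of 6.20 and a −log10 q of 7.88. Both libraries thus placed their nearest SOX9 summit at the same site.

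A second shared site followed further into the gene, 2.3 kb from the start. There, FLAG-wt-Cdx1 had 14 fragments (7.65 to 23.5; percentile 85.1) at position 70119311, and FLAG-wt-Cdx2 had 17 fragments (9.90 to 27.2; percentile 96.5) at 70119342, its strongest peak of the locus. The next FLAG-wt-Cdx2 peak, with 14 fragments (7.65 to 23.5; percentile 92.4), had its summit at 70120288. The nearest FLAG-wt-Cdx1 summit was 977 bp from it, and at such a background a FLAG-wt-Cdx1 peak was called from 7 fragments upward. The gene body of SOX9, approximately 6 kb, therefore held 2 FLAG-wt-Cdx1 and 3 FLAG-wt-Cdx2 summits.

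The other peaks of SOX9 lay mainly downstream. The 50 kb upstream held 2 FLAG-wt-Cdx1 and 3 FLAG-wt-Cdx2 summits, and the rest of the window, from the gene start onward, held 11 and 11. A shared site 24.2 kb downstream was the second strongest of FLAG-wt-Cdx1 in the locus, with 17 fragments (9.90 to 27.2; percentile 93.2) at position 70141206, beside 13 fragments (6.92 to 22.2; percentile 89.8) of FLAG-wt-Cdx2 at 70141241. Next to it, 576 bp away, FLAG-wt-Cdx1 had a further peak of 13 fragments at 70141782, whose nearest FLAG-wt-Cdx2 summit was 541 bp away. At 8.30 kb downstream, FLAG-wt-Cdx1 had 14 fragments (7.65 to 23.5) and FLAG-wt-Cdx2 had 9 (4.12 to 17.1). The only shared site upstream, 32.1 kb away, had 13 fragments of FLAG-wt-Cdx1 (6.92 to 22.2) and 7 of FLAG-wt-Cdx2 (2.81 to 14.4). The remaining shared sites, 10.5 and 19.7 kb downstream, had 8 and 12 FLAG-wt-Cdx1 fragments and 7 and 5 FLAG-wt-Cdx2 fragments. The last of these, with 5 fragments, was the weakest FLAG-wt-Cdx2 peak of the locus, at percentile 1.51. In the RefSeq annotation of GRCh38.p14, the next protein-coding genes on either side are KCNJ2, a potassium channel gene, and SLC39A11, a zinc transporter gene.

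Fold enrichment ranked the SOX9 gene body lower than pileup did, because its local background was raised. The local background, the number of fragments expected from the surrounding 10 kb, was 1.56 and 1.66 fragments at the FLAG-wt-Cdx1 summits of the gene body and 1.74 to 1.84 at those of FLAG-wt-Cdx2. These were 1.95 to 2.08 and 2.51 to 2.64 times the genome-wide values of 0.798 and 0.694 fragments. As a result, the strongest FLAG-wt-Cdx2 peak stood at percentile 96.5 by pileup and 85.3 by fold enrichment. The drop was larger at the FLAG-wt-Cdx2 peak at 70120288, from 92.4 to 63.5, and at the FLAG-wt-Cdx1 peak at 70119311, from 85.1 to 63.3. At the site nearest to the start, it was from 95.7 to 92.4 for FLAG-wt-Cdx1 and from 95.5 to 84.0 for FLAG-wt-Cdx2. The raised background was seen with both tagged factors, and the fragments of the peaks themselves are part of it. Whether it was specific to the FLAG-tagged proteins was not tested.

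**Figure D4:**
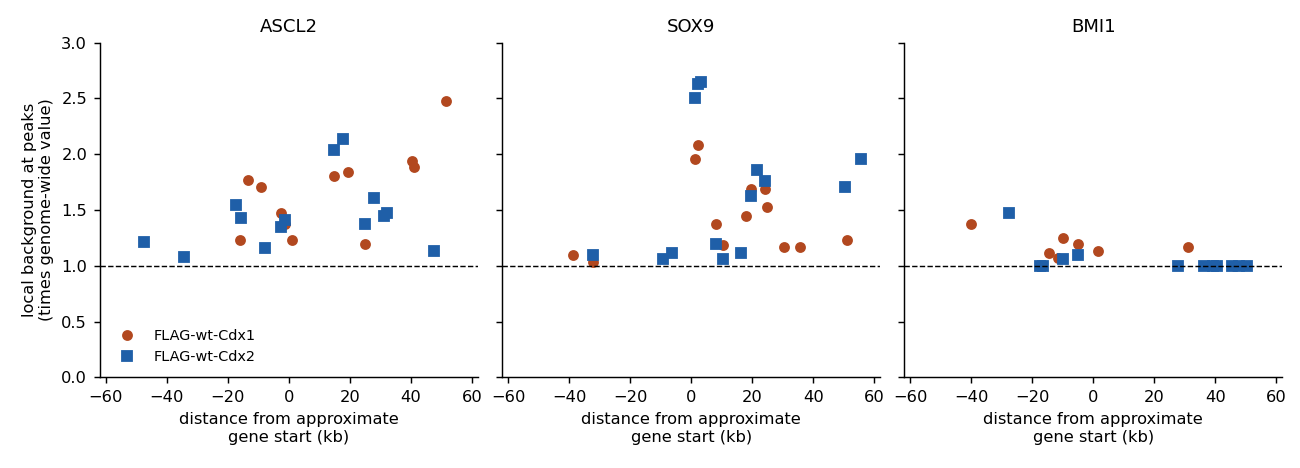
Local background at each peak, as a multiple of the genome-wide value of its library (y axis), against the distance from the approximate gene start in kb (x axis), for the 3 loci and both libraries. At SOX9 the values rise to 2.08 (FLAG-wt-Cdx1) and 2.64 (the other library) in the gene body, whereas at BMI1 most FLAG-wt-Cdx2 points lie on the genome-wide value (dashed line at 1).

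At ASCL2, the peaks within 5 kb of the gene start had 8 to 10 fragments, and the strongest site lay downstream of the gene. FLAG-wt-Cdx1 and FLAG-wt-Cdx2 had summits 8 bp apart at positions 2278127 and 2278135, 14.9 kb downstream of the gene start. The pileups were 19 fragments (11.4 to 29.7; percentile 95.7) and 17 fragments (9.90 to 27.2; percentile 96.5), with fold enrichments of 8.19 and 7.46 and −log10 q of 12.1 and 10.1. This was the strongest peak of the locus in both libraries, by pileup and by fold enrichment, and the only shared site of ASCL2 at which both peaks had a −log10 q of at least 5. The next protein-coding gene on this side is TH, which encodes tyrosine hydroxylase.

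Near the ASCL2 start, the nearest FLAG-wt-Cdx1 summit was at 2291913, 1087 bp downstream, with 10 fragments (4.80 to 18.4; percentile 50.1), a fold enrichment of 5.55 and a −log10 q of 5.36. It had no FLAG-wt-Cdx2 summit within 2343 bp, although a FLAG-wt-Cdx2 peak was called from 4 fragments upward at such a background. Upstream, a shared site at 2294272 and 2294256, about 1.3 kb from the start, had 8 FLAG-wt-Cdx1 and 8 FLAG-wt-Cdx2 fragments (3.45 to 15.8 each). Another at 2295455 and 2295465, about 2.5 kb upstream, had 9 (4.12 to 17.1) and 8 (3.45 to 15.8). These upstream sites matched within 16 bp and 10 bp between the libraries, at percentiles of 16.3 and 31.9 for FLAG-wt-Cdx1 and 44.8 for both FLAG-wt-Cdx2 peaks. The FLAG-wt-Cdx1 peak of 8 fragments was below the median pileup of its list, and the others were at the median of their lists. Their −log10 q ranged from 3.38 to 3.92. The last shared site, 15.9 kb upstream, had 8 fragments in each library with summits 86 bp apart.

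The largest peak at ASCL2 without a counterpart was a FLAG-wt-Cdx1 peak 9208 bp upstream of the start. At position 2302208 it had 18 fragments (10.7 to 28.4; percentile 94.6), a fold enrichment of 8.04 and a −log10 q of 11.5. The nearest FLAG-wt-Cdx2 summit, at 2300877, was 1331 bp away and had 9 fragments (4.12 to 17.1). Where the background scaled to depth was within 10% of that at this site, FLAG-wt-Cdx2 peaks were called from 5 fragments upward. Among all 48 unshared peaks of the 3 loci, the peak at 2302208 had the highest pileup of FLAG-wt-Cdx1. For FLAG-wt-Cdx2 it was the peak 3.3 kb into SOX9, with 14 fragments and a fold enrichment of 5.29. The unshared FLAG-wt-Cdx2 peaks of BMI1 at 22649204 and 22657869 had 11 fragments each but a higher fold enrichment, 7.08. C11orf21 and TSPAN32, a tetraspanin gene, are the next protein-coding genes on this side of ASCL2.

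The other peaks in the ASCL2 window had at most 13 fragments, and none was shared within 100 bp. FLAG-wt-Cdx1 had the next of its strong peaks, 13 fragments (6.92 to 22.2; percentile 80.2), 40.2 kb downstream at 2252812. The FLAG-wt-Cdx2 summit nearest to that peak was 7277 bp away. After the strongest peak of its own, FLAG-wt-Cdx2 had 10 fragments (4.80 to 18.4) at 2268199, 24.8 kb downstream. It then had 3 peaks of 9 fragments (4.12 to 17.1) each, 17.9 and 47.5 kb downstream and 7.88 kb upstream. The peak at 2268199 lay 121 bp from a FLAG-wt-Cdx1 summit of 7 fragments at 2268078, just outside the limit for a shared site. The upstream side held 5 FLAG-wt-Cdx1 and 7 FLAG-wt-Cdx2 summits, and the downstream side 7 and 7, so that no side was favored as at SOX9.

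At BMI1, no summit of either library lay within 1.5 kb of the approximate gene start, but that start is accurate only to about 1 kb. With the start 1 kb downstream, the nearest FLAG-wt-Cdx1 summit would be 503 bp from it. The nearest FLAG-wt-Cdx1 summit, at position 22611503, was 1503 bp downstream, with 9 fragments (4.12 to 17.1; percentile 31.9), a fold enrichment of 5.25 and a −log10 q of 4.78. The nearest FLAG-wt-Cdx2 summit to it was 6673 bp away, and at such a background FLAG-wt-Cdx2 peaks were called from 4 fragments upward. FLAG-wt-Cdx2 had 0 summits in the gene body of approximately 11 kb, and its nearest downstream summit was 27882 bp away, with 5 fragments (1.62 to 11.7; percentile 1.51). The whole BMI1 window held 8.11 and 10.8 summits per 100 kb, so that counts of 1 and 0 in a stretch of this length are close to the density of the window.

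Both shared sites of BMI1 lay upstream, on the side of COMMD3. The closer had summits at 22604868 and 22604830, 5132 and 5170 bp upstream, with 11 FLAG-wt-Cdx1 fragments (5.49 to 19.7; percentile 63.4) and 9 FLAG-wt-Cdx2 fragments (4.12 to 17.1; percentile 60.2). The other, with summits at 22600072 and 22600084, 9928 and 9916 bp upstream, had 10 (4.80 to 18.4; percentile 50.1) and 9 (4.12 to 17.1; percentile 60.2). All of these peaks had a −log10 q from 5.21 to 6.39, so that both sites were kept under the stricter threshold in both libraries. The start of COMMD3-BMI1, whose upstream sequence is printed above, is 4711 bases upstream of BMI1 in the newer build, and whether the closer site lay at it was not determined.

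Peaks of the same or a higher pileup were found far downstream of BMI1, on the side of SPAG6, a sperm flagellum gene. Whether they lay inside SPAG6 was not determined, since annotation of GRCh37 was not used. FLAG-wt-Cdx1 had 11 fragments (5.49 to 19.7; percentile 63.4) 46.0 kb downstream at 22655973, equal to its shared peak 5132 bp upstream. The strongest peaks of FLAG-wt-Cdx2, both with 11 fragments (5.49 to 19.7; percentile 80.5), were 39.2 and 47.9 kb downstream at 22649204 and 22657869. None of these downstream peaks was shared within 100 bp. The peak at 22649204 had a FLAG-wt-Cdx1 summit of 9 fragments 168 bp away, at 22649372, and the peaks overlapped. The local background was above the genome-wide value at 3 of 12 FLAG-wt-Cdx2 peaks at BMI1, against 58.1% of the list. For FLAG-wt-Cdx1 it was above that value at 7 of 9 peaks, against 71.2% of the list. At SOX9 and ASCL2 it was above it at all peaks of both libraries.

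At the 13 shared sites, the pileups of the factors were compared after scaling to kept tags. The ratio of FLAG-wt-Cdx1 to FLAG-wt-Cdx2 ranged from 0.690, at the second site in the SOX9 gene body (exact interval, 0.315 to 1.49), to 2.01, at the SOX9 site 19.7 kb downstream (0.659 to 7.28). The interval contained 1 at 13 of 13 sites. The intervals were wide at these pileups, so that this does not show that the factors were equally abundant at them. At the strongest site of ASCL2 the ratio was 0.936 (0.461 to 1.92), and at the first site in SOX9 it was 0.995 (0.485 to 2.07). Summed over the sites of a gene, it was 0.899 (0.574 to 1.41) at ASCL2, 1.10 (0.803 to 1.51) at SOX9 and 0.977 (0.496 to 1.95) at BMI1. The median over 57545 shared pairs of the whole lists was 0.952, with 5th and 95th percentiles of 0.503 and 1.81. A pair is formed only where both libraries have a called peak, so that these ratios leave out every site at which a factor had none.

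**Figure D5:**
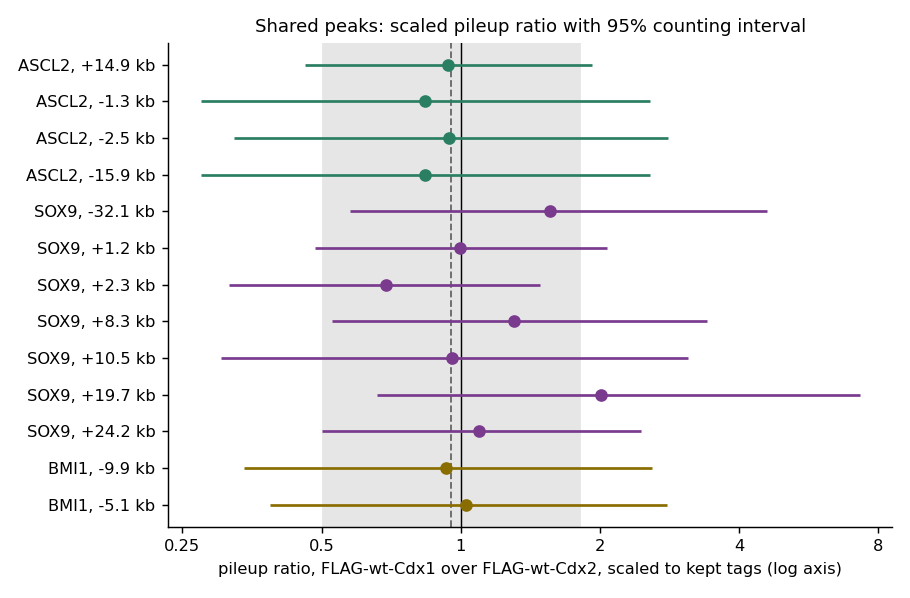
Ratio of FLAG-wt-Cdx1 to FLAG-wt-Cdx2 pileup, each scaled to kept tags (x axis, log scale), with its exact 95% counting interval, for the 13 shared sites named by their distance from the approximate gene start (y axis). The dashed line is the median (0.952) and the band the 5th to 95th percentile (0.503 to 1.81) of all 57545 pairs: every interval contains 1.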

How the data were processed

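Peak lists of ChIP-seq in DLD1-TetOff cells, deposited by the authors, were examined, with 1 library for each tagged factor, assigned by title. Reads had been handled, per the submitters' processing notes, with bcl2fastq 1.8.3, cutadapt 1.1, Trimmomatic 0.32 and MACS2 2.0.10 on GRCh37. The header of each list names MACS 2.0.10.20131216, run without a control, keeping 1 tag per position and cutting at a q-value of 0.05. The aligner is not settled by the sources used here. Peaks were called per library, on 16452141 and 13781541 kept tags. Each deposited list gives the pileup signal at the summit (fragments, unscaled), the fold enrichment as a ratio, (pileup + 1) / (local background + 1), and the −log10 of the p-value and of the q-value. No columns of other samples were present.

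Solving that ratio for the local background gave a whole number of tags per 10 kb (tolerance 0.05) at 100% of peaks above the genome-wide value. Summits within 100 bp were called shared. Pileups were given exact Poisson intervals, pair ratios exact conditional binomial intervals, and shares Wilson intervals, all at 95%. Sequencing reads amplified by PCR are not independent molecules. The equal-sized windows included those with at least 1 peak in either library. Named peaks are, per locus and library, the summit nearest to the gene start on either side, the 3 highest pileups (ties broken by fold enrichment), and shared pairs in which −log10 q reached 5 on both sides. The other shared pairs and the pairs just beyond 100 bp were added after their values were seen. The genes, windows and lists were chosen with earlier results of these data known. A planned list of other crypt genes was not used here, since coordinates of them in GRCh37 were not used. Matching of summits and overlap were tested on simulated lists, and the Poisson interval and the scaled ratio on known values. Scripts ran in Python 3.11.15 with pandas 2.3.3, numpy 2.4.6 and scipy 1.17.1, and figures were drawn with matplotlib 3.10.9.

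Alternatives were stricter thresholds (−log10 q or fold enrichment of at least 5), flanks of 20 kb, other summit distances or overlap for sharing, other measures for ranking, and gene starts moved by 1 kb.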

Additional observations from a re-analysis of the deposited data

How the results depend on the processing

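With a −log10 q of at least 5, the FLAG-wt-Cdx1 peaks fell from 12 to 4 at ASCL2, 13 to 8 at SOX9 and 9 to 4 at BMI1, and the FLAG-wt-Cdx2 peaks from 14 to 4, 14 to 6 and 12 to 4. With a fold enrichment of at least 5, ASCL2 kept 4 and 5 peaks, SOX9 10 and 7, and BMI1 6 and 4. With flanks of 20 kb, ASCL2 kept 8 and 7, SOX9 8 and 11, and BMI1 5 and 5. These counts are smaller by construction. Applying the stricter q to both members of a pair lowered the shared pairs from 4 to 1 at ASCL2 and from 7 to 3 at SOX9, and the other 26 counts of shared peaks stayed within 1.5 times. By fold enrichment, −log10 q and pileup within the same chromosome, the percentile of the strongest peak was 93.7, 95.5 and 96.7 (FLAG-wt-Cdx1) and 93.3, 95.4 and 96.3 (FLAG-wt-Cdx2) at ASCL2. It was 92.4, 94.5 and 96.9, and 85.3, 92.2 and 96.2, at SOX9. It was 80.7, 77.1 and 66.3, and 91.0, 89.3 and 81.4, at BMI1, against 63.4 and 80.5 by pileup over the whole list. The nearest summit to the start moved with its assumed position. With the start 1 kb upstream, the distances were −272 bp (FLAG-wt-Cdx1, now upstream) and −256 bp at ASCL2, 2199 and 2181 bp at SOX9, and 2503 and −4170 bp at BMI1. With it 1 kb downstream, they were 87 and −2256 bp, 199 and 181 bp, and 503 and −6170 bp. With the stricter q, the nearest FLAG-wt-Cdx2 summit of ASCL2 was at −7877 bp, and the nearest FLAG-wt-Cdx1 summit of BMI1 was on the other side of the start, at −5132 bp.

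No paired analysis was possible because each factor had 1 library, and leaving out a library was not possible. Depth limits the single peaks: at pileups of 5 to 19 fragments the counting intervals are wide, and the lack of a called peak of the other library is not absence of the factor. Pileup at a summit is the maximum of its peak in each library.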

Other observations

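Some pairs of summits lay just beyond the 100 bp used for sharing. At ASCL2, a FLAG-wt-Cdx1 summit of 7 fragments and a FLAG-wt-Cdx2 summit of 10 fragments, 24.9 and 24.8 kb downstream, were 121 bp apart in overlapping peaks of 470 and 299 bp. The FLAG-wt-Cdx1 peak was long against the median length of 158 bp in its list. At BMI1, the summits 39.4 and 39.2 kb downstream were 168 bp apart, with 9 and 11 fragments. With a distance of 200 bp, the shared pairs would be 5 at ASCL2, 7 at SOX9 and 3 at BMI1, and counting peaks that overlap by at least 1 bp gives the same numbers.

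The highest local background among the 74 peaks of the 3 genes was at SOX9 for FLAG-wt-Cdx2, 135 tags per 10 kb at the peak 3.3 kb into the gene against 51 genome-wide. For FLAG-wt-Cdx1 it was at the far downstream edge of ASCL2, 151 tags per 10 kb against 61 genome-wide, at a summit 51.4 kb from the gene start on the side of TH. The pileup of that FLAG-wt-Cdx1 peak was 8 fragments, with a fold enrichment of 3.02, the lowest of the FLAG-wt-Cdx1 peaks at these genes.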
